A study of Mus musculus with 8 samples.

Results

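Dendritic cells are the immune cells that take up antigen and show it to T cells, and 10 genes of their lineage were followed here in mouse fat: Flt3, Zbtb46, Xcr1, Batf3, Itgae, Naaa, Irf8, Irf4, Cd24a and Wdfy4. They were picked by name, as genes known for the development or identity of dendritic cells, but with earlier results of these data known. All 10 were found among the 24821 genes of the deposited table. The tissue was epididymal white adipose tissue, a fat depot that lies along the epididymis of the male mice. Libraries came from 4 wild type (WT) samples and 4 samples with a knockout (KO) of Ccdc92, which encodes a coiled-coil protein. Every mouse was on the C57BL/6 background and ate a high-fat diet for 14 weeks, with 60% of calories as fat, 20% as protein and 20% as carbohydrate, and the WT mice were littermates of the same age. The labels give neither the age in weeks, nor the part of Ccdc92 that was deleted, nor whether the libraries are from different animals, so the p-values speak of the spread among these libraries alone, which may be technical.

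Conventional dendritic cells arise from bone marrow precursors that carry the receptor Flt3 and grow on its ligand. They split into a branch called cDC1, which depends on the transcription factors Irf8 and Batf3 and is known for cross-presentation, the display of material taken up from other cells on MHC class I, and a branch called cDC2, which depends on Irf4 and Klf4 and mainly primes helper T cells. Zbtb46 marks both branches, and plasmacytoid dendritic cells, a separate kind that makes type I interferon, depend on Tcf4. In adipose tissue dendritic cells lie among far more numerous macrophages, and the whole tissue was sequenced here. Several of the genes are also used by other cells: Irf8 and Wdfy4 by macrophages and B cells, Zbtb46 by endothelium, Itgae by T cells, Irf4 by plasma cells and adipocytes, Cd24a by B cells, red cell precursors and epithelium.

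The knockout and the tissue were checked first. Normalized counts of Ccdc92 lay between 54.1 and 105.8 in the WT libraries and between 4.9 and 9.7 in the KO libraries. Adipoq, the adipocyte hormone adiponectin, stood between 12578.3 and 27239.4 in WT and between 68453.3 and 92420.6 in KO, and 7 of 8 adipocyte markers were higher in KO. Crisp1, a secretory protein of the epididymis, was at 26574.7 to 71824.5 in all 4 WT libraries and at 0 to 37.6 in KO, so that a transcript of the organ beside the fat moved with the groups. Pan-leukocyte genes were lower in KO in 7 of 7 cases, with a summed level between 60157 and 131809 in WT and between 13856 and 24523 in KO, and macrophage markers in 11 of 12. Of 8 monocyte genes tested 1 was lower and 7 did not pass, and of 4 neutrophil genes 2 were higher (1 without WT replicate 1, 2 or 3 or KO replicate 2). Among all genes tested 20.2% were higher and 21.5% lower. A pair of libraries stood apart in red cell transcripts: globin took 18% of reads in KO replicate 3 and 1.75% in WT replicate 4, against 0.233% to 0.495% in the other 6. In bulk tissue, fewer cells of a type and less RNA per cell cannot be told apart.

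The dendritic cell genes did not move as a block. Irf8 and Wdfy4 fell about 3-fold in KO fat, Itgae, Zbtb46 and Naaa rose, and Flt3, Batf3, Xcr1, Irf4 and Cd24a did not pass the test. A gene passed at an adjusted p under 0.05 in limma, a linear model fitted across all genes on log2(normalized count + 1) with Benjamini-Hochberg adjustment; fold changes are KO over WT on that scale, which understates the change of low genes. All 10 entered the test, and 5 passed, which is close to the 41.7% of the 17798 genes tested that did so. The 3 higher genes compare with 20.2% of all genes higher, and the 2 lower genes with 21.5% lower. In 5 of the 10 the groups did not overlap, where 42.1% of all tested genes had no overlap. The median log2 fold change of the 10 was -0.14, beside -0.007 over all genes.

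**Figure D1:**
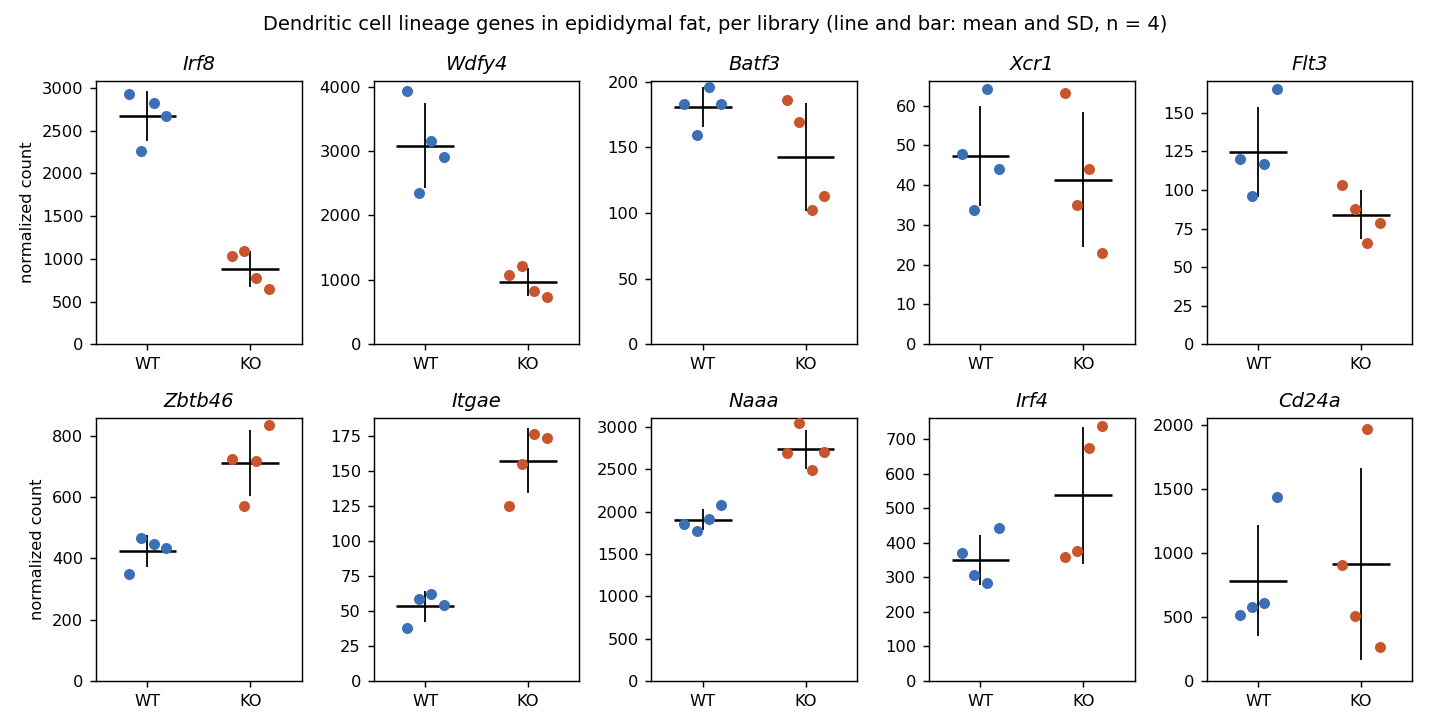
Normalized count (y axis, from 0) of each of the 10 genes in the 4 WT (blue) and 4 KO (orange) libraries; every point is 1 library, the horizontal line is the group mean and the vertical bar its SD. Irf8 and Wdfy4 have all KO points under all WT points, Itgae, Zbtb46 and Naaa have them above, and the groups overlap in the other 5.

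Promoter sequence is shown for the called genes that have an entry in the RefSeq table of windows (build GRCm38.p6), from 250 bases before to 50 after a transcription start, because Irf8 and Wdfy4 moved together and Zbtb46 and Naaa moved the opposite way. Of the 10 genes, 8 had a window. Each line runs 5′ to 3′ on the gene's own strand, and capitals mark the motif matches described after it.
Irf8 chr8:120736108-120736407 (plus strand): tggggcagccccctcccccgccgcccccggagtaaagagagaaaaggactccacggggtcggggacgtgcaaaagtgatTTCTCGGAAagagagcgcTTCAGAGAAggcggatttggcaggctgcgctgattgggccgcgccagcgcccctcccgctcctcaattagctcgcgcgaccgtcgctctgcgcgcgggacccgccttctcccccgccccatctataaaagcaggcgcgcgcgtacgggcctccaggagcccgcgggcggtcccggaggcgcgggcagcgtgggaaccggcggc
Wdfy4 chr14:33185017-33185316 (minus strand): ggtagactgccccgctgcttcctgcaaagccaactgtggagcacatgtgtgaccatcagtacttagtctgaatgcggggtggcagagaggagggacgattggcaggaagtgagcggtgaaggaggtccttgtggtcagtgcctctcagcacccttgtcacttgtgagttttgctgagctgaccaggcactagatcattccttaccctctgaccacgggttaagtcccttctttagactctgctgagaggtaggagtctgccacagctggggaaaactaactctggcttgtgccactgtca
Zbtb46 chr2:181424339-181424638 (minus strand): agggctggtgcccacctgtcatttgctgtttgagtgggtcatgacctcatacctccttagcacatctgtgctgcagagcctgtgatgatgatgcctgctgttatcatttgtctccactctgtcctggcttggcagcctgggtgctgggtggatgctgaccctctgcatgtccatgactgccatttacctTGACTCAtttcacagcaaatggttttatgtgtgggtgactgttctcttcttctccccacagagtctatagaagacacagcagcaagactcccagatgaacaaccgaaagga
Naaa chr5:92278132-92278431 (minus strand): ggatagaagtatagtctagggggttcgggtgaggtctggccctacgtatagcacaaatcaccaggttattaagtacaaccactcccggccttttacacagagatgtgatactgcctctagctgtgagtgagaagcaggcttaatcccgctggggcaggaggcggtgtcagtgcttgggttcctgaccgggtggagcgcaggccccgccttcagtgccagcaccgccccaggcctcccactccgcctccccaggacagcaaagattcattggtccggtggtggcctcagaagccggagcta
The motifs were searched on both strands: GAAANNGAAA (interferon-stimulated response element), GGAANNGAAA (composite site of an ETS factor with an IRF, whose matches can overlap those of the first), TGACTCA (AP-1, the family Batf3 pairs with), GAGGAA (core bound by the ETS factor PU.1) and TTCNNNGAA (gamma-activated site bound by STAT factors, the same on both strands). The Irf8 window, taken around the annotated start of the gene, held 2 matches to TTCNNNGAA, TTCTCGGAA from -171 to -163 and TTCAGAGAA from -153 to -145 relative to the start, and 8.3% of the 32851 windows in the table held at least 1. Zbtb46 held TGACTCA from -61 to -55, a motif in 5.2% of windows; this RefSeq start lies inside the gene model and is not its outermost start. None of the 5 motifs was found in the Wdfy4 and Naaa windows, and the shares of all windows were 3.44% for GAAANNGAAA, 2.72% for GGAANNGAAA and 28.3% for GAGGAA. The RefSeq start of the Wdfy4 window also lies inside the gene model. A further Irf8 window, chr8:120738389-120738688, lies inside the gene, held none of the 5 motifs and is not shown. A match is a string of letters in this window, not a measured binding site.

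Irf8 is the transcription factor that commits precursors to the cDC1 branch and is kept by monocytes, many macrophages and B cells (ENSMUSG00000041515.10, chromosome 8, 120736358 to 120756694, plus strand, GRCm38). Its normalized counts were 2932.7, 2268.6, 2823.9 and 2677.9 in WT replicates 1 to 4 and 1035.4, 1087.8, 776.1 and 644.0 in KO replicates 1 to 4. Even the lowest WT library lay far above the highest KO library. Group means were 2676 ± 291 in WT and 886 ± 211 in KO (SD, n = 4 each). The log2 fold change was -1.62 (SE 0.17, 95% interval -2.02 to -1.22, limma adjusted p = 0.000508). A second gene model, Gm20388, spans the whole locus on the same strand, but shares no exonic base with Irf8.

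Wdfy4 is a large BEACH-domain protein that cDC1 need to cross-present antigen from cells (ENSMUSG00000051506.17, chromosome 14, 32959547 to 33185508, minus strand). WT libraries held 3926.1, 2343.6, 3157.1 and 2903.5 normalized counts and KO libraries 1068.7, 1210.9, 820.1 and 738.6. As with Irf8, each KO value was under each WT value, and replicates 3 and 4 were the lowest KO libraries. Means of 3083 ± 657 and 960 ± 219 (SD, n = 4 each) gave a log2 fold change of -1.69 (SE 0.20, 95% interval -2.14 to -1.24, limma adjusted p = 0.000655). Lrrc18 lies inside Wdfy4 on the opposite strand and shares no exonic base with it, and over all libraries it had 272 reads against 16938.

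Per kilobase of exon, Irf8 stood at 1.12 to 1.45 times the level of Wdfy4 in WT and at 1.3 to 1.45 times in KO, so the ratio of the 2 levels was held within a narrow range while both fell. This ratio, like the others given, was picked after the values were seen and is a description with no test. Macrophage markers moved the same way: of 12 tested, 11 were lower, with a summed level between 136165 and 277448 in WT, between 48190 and 74623 in KO, and no marker at 0. Adgre1 (F4/80, a macrophage adhesion receptor) had a log2 fold change of -2.42, Cd68 of -2.73 and Trem2 of -4.14 (limma adjusted p = 0.000911, 0.000406 and 0.00037). B cell and plasma cell genes were lower in 4 of 10 cases (2 without WT replicate 4, 8 without KO replicate 3), among them Cd22, a B cell lectin, with a log2 fold change of -2.47 (limma adjusted p = 0.000737). The part of macrophages and B cells in the change of Irf8 and Wdfy4 was not tested.

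Batf3, the AP-1 factor that sustains Irf8 in committed cDC1 (ENSMUSG00000026630.9, chromosome 1, 191097847 to 191108945, plus strand), had normalized counts of 183.5, 159.6, 195.9 and 183.5 in WT and 186.2, 169.2, 102.1 and 112.8 in KO. KO replicates 1 and 2 lay within the WT range and replicates 3 and 4 below it, so the spread was wider in KO. The log2 fold change was -0.38 (SE 0.21, 95% interval -0.86 to 0.09, limma adjusted p = 0.173), which leaves room for a fall of some size and for none.

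Xcr1 is the chemokine receptor that sets cDC1 apart from other leukocytes most sharply (ENSMUSG00000060509.4, chromosome 9, 123852315 to 123862029, minus strand). It was the scarcest of the 10 genes per kilobase, with 52, 35, 69 and 47 recovered reads in WT and 55, 41, 41 and 19 in KO. Exact 95% Poisson intervals, which cover counting error only, ran from 24.4 to 48.7 reads for the lowest WT library and from 11.4 to 29.7 for the lowest KO library. Normalized counts of 47.7, 33.7, 64.1 and 44.0 in WT and 63.2, 35.0, 44.1 and 23.0 in KO overlapped, with the highest KO value beside the highest WT value. The log2 fold change of -0.24 had an interval of -1.0 to 0.51 (SE 0.33, limma adjusted p = 0.58), so a halving of Xcr1 is at the edge of what these libraries allow, and no difference was detectable at this depth.

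Clec9a, the receptor with which cDC1 sense dead cells, is no member of the 10 but a defining gene of the same cells, and it gave 127.5, 121.2, 118.8 and 152.6 in WT and 135.6, 139.3, 97.8 and 124.9 in KO. The groups overlapped. Its log2 fold change was -0.07 (SE 0.16, 95% interval -0.43 to 0.29, limma adjusted p = 0.75), an interval that lies above the whole interval of Irf8 (-2.02 to -1.22) and of Wdfy4 (-2.14 to -1.24). The difference between these genes' changes was not itself tested. Wdfy4 stood at 20.8 to 34.7 times the per-kilobase level of Xcr1 in WT and at 7.14 to 14.6 times in KO, with no overlap, whereas Xcr1 stood at 0.205 to 0.399 times Clec9a in WT and at 0.136 to 0.345 times in KO.

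Flt3 is the receptor tyrosine kinase for the growth factor that drives dendritic cell output, and it is shared by cDC1, cDC2 and their precursors (ENSMUSG00000042817.15, chromosome 5, 147330741 to 147400489, minus strand). WT libraries gave 120.2, 96.2, 117.0 and 165.7 normalized counts and KO libraries 103.4, 88.0, 65.6 and 78.8. Only KO replicate 1 reached into the WT range, over WT replicate 2. Means were 125 ± 29.3 and 84.0 ± 15.9 (SD, n = 4 each), and the log2 fold change was -0.56 (SE 0.21, 95% interval -1.04 to -0.08, limma adjusted p = 0.0631), just short of the threshold. It passed in DESeq2 on the recovered reads (log2 fold change -0.57, adjusted p = 0.0421) and in limma without WT replicate 2 (-0.67, adjusted p = 0.0416), and in 16 of the 18 alternatives it did not. The ligand gene Flt3l was at 167.0, 171.2, 173.6 and 187.3 in WT and at 164.3, 158.9, 173.1 and 309.3 in KO, and did not pass (log2 fold change 0.15, limma adjusted p = 0.604). KO replicate 4 was its single high library, and without it the log2 fold change was -0.08.

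Zbtb46 is the zinc finger factor found in conventional dendritic cells and largely absent from macrophages (ENSMUSG00000027583.13, chromosome 2, 181387762 to 181459426, minus strand). It read 348.6, 467.4, 447.4 and 434.5 in WT and 725.1, 572.5, 720.2 and 835.6 in KO. Every KO library was above every WT library, with KO replicate 2 the closest. The means rose from 425 ± 52.4 to 713 ± 108 (SD, n = 4 each), a log2 fold change of 0.74 (SE 0.14, 95% interval 0.43 to 1.06, limma adjusted p = 0.00353). Endothelium also uses Zbtb46, and 5 of 7 endothelial markers were higher in KO, with a summed level between 13405 and 27871 in WT, between 33142 and 35706 in KO, and none at 0 (3 of 7 without WT replicate 3). Kdr, the main VEGF receptor, had a log2 fold change of 1.21 and Robo4, an endothelial guidance receptor, of 1.32 (limma adjusted p = 0.00154 for each). Their part in the rise of Zbtb46 was not tested.

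Itgae, the integrin alpha E chain (CD103) that binds E-cadherin and marks many tissue cDC1, showed the largest rise of the 10 (ENSMUSG00000005947.11, chromosome 11, 73090583 to 73147446, plus strand). Its normalized counts were 37.6, 58.7, 62.2 and 54.3 in WT and 125.3, 154.7, 176.3 and 173.4 in KO. Even the lowest KO library lay far above the highest WT library. The mean went from 53.2 ± 10.9 to 157 ± 23.5 (SD, n = 4 each), and the log2 fold change was 1.56 (SE 0.20, 95% interval 1.10 to 2.02, limma adjusted p = 0.000879). T cells also carry CD103, and of 11 T and NK cell genes tested 5 were lower and 6 did not pass, with a summed level between 1087 and 1991 in WT and between 402 and 1187 in KO. The 5 varied from 2 to 8 as single libraries were left out, with 8 without KO replicate 3, 3 without KO replicate 1 or 4, and 2 without KO replicate 2 or WT replicate 1, 3 or 4. Cd8a, the co-receptor of killer T cells, had a log2 fold change of -1.98 and Trac, the T cell receptor alpha constant region, of -1.13 (limma adjusted p = 0.0191 and 0.0178). The part of T cells in the level of Itgae was not tested. Haspin, a mitotic kinase gene that sits inside Itgae on the opposite strand with no shared exonic base, went the other way, from 112 ± 27.3 to 41.5 ± 8.56 (SD, n = 4 each, log2 fold change -1.40, limma adjusted p = 0.00262). The strand setting of the counting is not given in the sources used here, so reads of this pair from introns or antisense transcripts cannot be told apart.

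Naaa, a lysosomal amidase that breaks down lipid amides and is enriched in cDC1 (ENSMUSG00000029413.14, chromosome 5, 92257659 to 92278170, minus strand), had the smallest SE of the 10. Its normalized counts were 1854.8, 1775.2, 1909.5 and 2074.9 in WT and 2691.2, 3044.7, 2492.7 and 2704.4 in KO. The groups did not overlap, and the gap between them was larger than the SD of either. From 1904 ± 127 the mean rose to 2733 ± 229 (SD, n = 4 each), with a log2 fold change of 0.52 (SE 0.08, 95% interval 0.33 to 0.71, limma adjusted p = 0.00205). Per kilobase of exon Naaa was at 512 in WT and 735 in KO, against 10.6 and 9.28 for Xcr1. Xcr1 and Clec9a did not pass. The cells that the Naaa transcripts came from were not tested.

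Irf4, the factor of the cDC2 branch (ENSMUSG00000021356.10, chromosome 13, 30749226 to 30766976, plus strand), was at 368.8, 305.8, 284.1 and 443.8 in WT and at 358.5, 376.0, 674.0 and 738.6 in KO. KO replicates 1 and 2 sat within the WT range, and replicates 3 and 4 were well above it. Irf4 did not pass (log2 fold change 0.56, SE 0.27, 95% interval -0.05 to 1.17, limma adjusted p = 0.126). Adipocytes use Irf4 too, and Adipoq was at 68453.3, 70490.6, 92420.6 and 86333.3 in KO replicates 1 to 4. In WT replicates 1 to 4 Adipoq was at 12578.3, 27239.4, 18998.6 and 25139.3, an order that differs from that of Irf4 in WT. Plasma cells do so as well, and their genes were mixed: Jchain, which joins antibody chains, had a log2 fold change of -2.25 and Mzb1, a chaperone of antibody secretion, of -2.34 (limma adjusted p = 0.0265 and 0.0271). Tnfrsf17, their survival receptor, had -0.10 (adjusted p = 0.883). The calls of Jchain and Mzb1 were lost without WT replicate 4, Jchain also without WT replicate 3 and Mzb1 also without WT replicate 1. Both were lost with a replicate block (limma adjusted p = 0.0755 and 0.0808), and Jchain without WT replicate 4 and KO replicate 3 together (0.0506). Jchain passed in 13 of the 18 alternatives and Mzb1 in 15. The part of these cells in the level of Irf4 was not tested. The per-kilobase level of Irf8 was 4.19 to 6.91 times that of Irf4 in WT and 0.606 to 2.01 times in KO, and in KO replicates 3 and 4 Irf4 was the higher of the pair.

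Cd24a encodes a small glycoprotein that marks cDC1 and many other cells (ENSMUSG00000047139.9, chromosome 10, 43578284 to 43584265, plus strand). Its normalized counts were 512.8, 577.0, 612.7 and 1437.3 in WT and 907.8, 507.6, 1967.1 and 264.4 in KO. The highest value in each group was in the library with the most globin, WT replicate 4 and KO replicate 3, where Hbb-bs, an adult beta-globin gene, was at 130381.7 and 2102574.4 against 18830.7 to 38577.6 elsewhere. The summed level of B cell and plasma cell genes was also highest in these libraries, 15308 in WT replicate 4 and 4348 in KO replicate 3, against 7014 to 9943 and 1385 to 3053 in the others of each group. No direction could be read for Cd24a (log2 fold change -0.03, SE 0.59, 95% interval -1.39 to 1.33, limma adjusted p = 0.973), and without KO replicate 4 it was 0.44. Epithelial genes, which in WT include those of the epididymis, were lower in 6 of 7 cases: Cdh1 (E-cadherin) had a log2 fold change of -5.07 and Krt8, a keratin, of -1.76 (limma adjusted p = 0.00568 and 0.00816). The red cell, B cell and epithelial shares of Cd24a were not tested, and Cd24a has related copies in the genome, so its counts are uncertain to the extent that reads were shared.

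**Figure D2:**
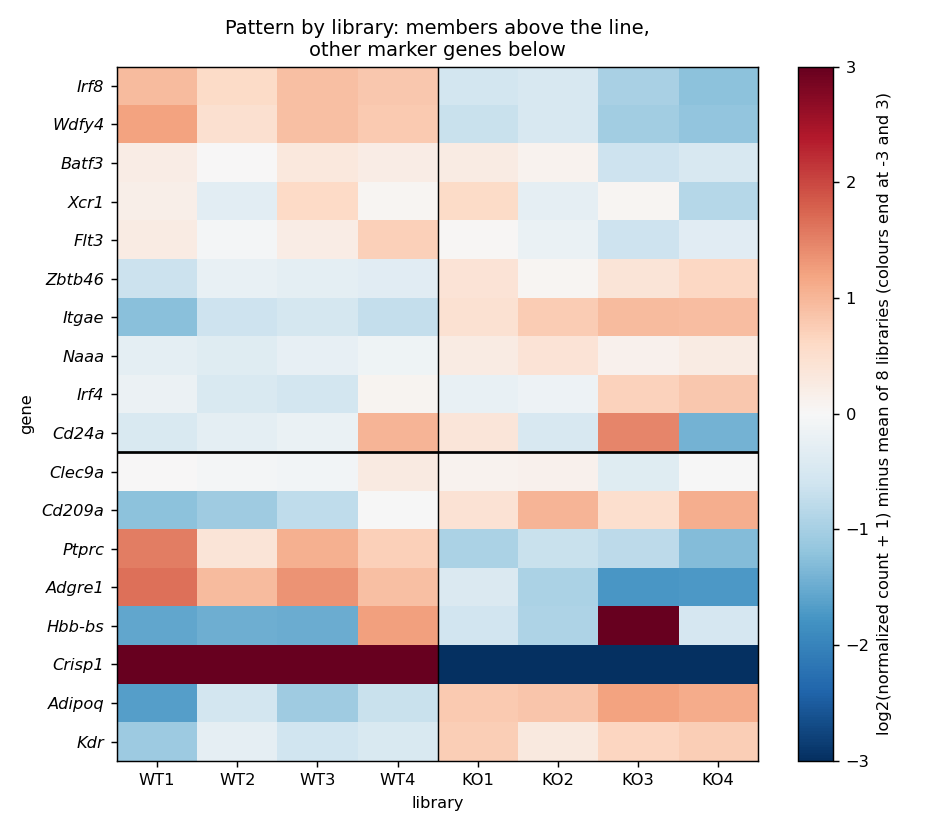
Each square is the log2(normalized count + 1) of a gene (rows) in a library (columns) minus that gene's mean over the 8 libraries, with red above and blue below the mean and colours ending at -3 and 3. Irf8 and Wdfy4 run red to blue from WT to KO like Ptprc and Adgre1, Itgae and Zbtb46 run blue to red like Cd209a and Kdr, and Cd24a is reddest in WT4 and KO3, as is Hbb-bs.

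As levels per kilobase of exon, the 10 genes were ordered in WT as Naaa (512 ± 34.1), Irf8 (379 ± 41.2), Cd24a (304 ± 169), Wdfy4 (292 ± 62.3), Batf3 (113 ± 9.49), Irf4 (71.5 ± 14.6), Zbtb46 (49.9 ± 6.16), Flt3 (20.2 ± 4.75), Itgae (11.6 ± 2.37) and Xcr1 (10.6 ± 2.83; SD, n = 4 each). Ranges of neighbours overlapped for Irf8 with Cd24a, Cd24a with Wdfy4 and Itgae with Xcr1, and not for the other neighbours. By KO means, Naaa was still at the top (735 ± 61.6), above Cd24a (353 ± 291), whose range of 102 to 762 overlapped those of its neighbours and which exceeded Naaa in KO replicate 3, and Xcr1 at the bottom (9.28 ± 3.8), while Irf8 (126 ± 29.9), Irf4 (109 ± 40.3), Wdfy4 (90.9 ± 20.7), Batf3 (89.3 ± 25.9) and Zbtb46 (83.8 ± 12.7) formed a run in which each neighbour overlapped the next. Itgae (34.4 ± 5.13) stood above Flt3 (13.6 ± 2.58) in every KO library and below it in every WT library, as the per-kilobase ranges of 27.3 to 38.5 against 10.6 to 16.7 and of 8.21 to 13.6 against 15.6 to 26.8 show.

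Since pan-leukocyte and macrophage genes were lower in KO, the 10 genes were also set against Ptprc (CD45, carried by all leukocytes) and against Adgre1 in the same library. Relative to Ptprc, 8 of the 10 were higher in KO in the limma fit, beside 85.1% of all genes tested, and relative to Adgre1 also 8, beside 90.4%. These shares are near those of all genes and say nothing particular about dendritic cell genes. In such a fit the reference gene's own spread enters every gene, so its intervals lean almost wholly on a spread common to all genes, and the libraries are given instead.

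Irf8 and Wdfy4 were the exceptions in both fits. The log2 difference between Irf8 and Ptprc was -1.60, -0.83, -1.20 and -0.92 in WT and -0.62, -0.84, -1.20 and -0.94 in KO. The groups overlapped (difference of means 0.23, two-sided exact permutation p = 0.4). For Wdfy4 and Ptprc it was -1.18, -0.78, -1.04 and -0.80 in WT and -0.58, -0.68, -1.12 and -0.75 in KO (difference 0.17, exact permutation p = 0.257). Here all KO libraries but replicate 3 lay above all WT libraries, by a small margin. A difference from Ptprc was thus not detected for either, and the limma intervals, with that common spread, were -0.38 to 0.84 for Irf8 and -0.43 to 0.77 for Wdfy4. Against Adgre1 all KO libraries but replicate 1 lay above all WT libraries for both genes, with differences of means of 0.81 for Irf8 and 0.74 for Wdfy4 (exact permutation p = 0.0571 for each). Without that library both passed in limma (0.98 and 0.94, adjusted p = 0.00536 and 0.0072). In that setting 16236 of the 17797 genes tested were higher, so these passes say nothing particular about Irf8 and Wdfy4. With the mean of the 12 macrophage markers as the reference in place of Adgre1, the differences were 0.18 and 0.12 and neither passed (adjusted p = 0.369 and 0.557).

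The other 8 genes were each higher relative to Ptprc and to Adgre1. Differences from Ptprc ran from 1.30 for Flt3 to 3.41 for Itgae, where the median gene differed by 1.85. Of the 10 genes, 7 were higher with no overlap between groups, which gives an exact permutation p of 0.0286, the smallest that 4 against 4 allows, and 81.5% of all genes were so as well. Xcr1, for instance, minus Ptprc was -7.51 to -6.64 log2 units in WT and -5.75 to -4.64 in KO. Cd24a was the gene with an overlap (difference 1.82, exact permutation p = 0.0857), although it passed in limma. Relative to Adgre1 the differences ran from 1.87 for Flt3 to 3.98 for Itgae, with the median gene at 2.42, and 8 of the 10 had no overlap, beside 86.6% of all genes.

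**Figure D3:**
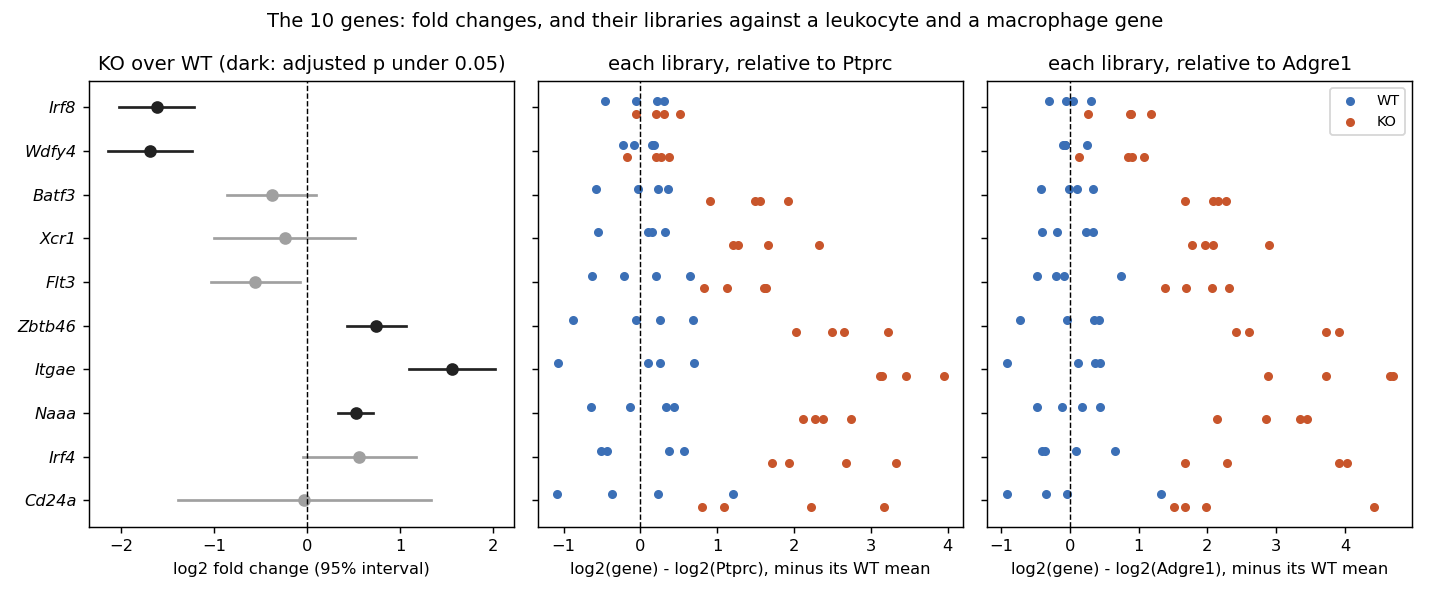
Left, log2 fold change of each gene (point) with its 95% limma interval (line), dark where it passed; centre and right, the log2 level of each gene minus that of Ptprc or Adgre1 in the same library, as distance from the WT mean, with WT libraries in blue and KO libraries in orange. Against Ptprc the KO points of Irf8 and Wdfy4 overlap the WT points. KO replicate 1 of Irf8, and all KO replicates of Wdfy4 but replicate 3, lie to the right of every WT point. Those of the other 8 genes lie to the right against Ptprc, with overlap for Cd24a alone.

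Beyond the 10 genes, lists of dendritic cell genes that include some of them were counted. They were chosen with results of these data known. All the list counts below stand beside 20.2% higher and 21.5% lower among the 17798 genes tested, and no list was tested as a set. Of 20 cDC1 genes tested, 2 were higher (Itgae and Naaa), 7 lower and 11 not called, with a median log2 fold change of -0.36. The largest falls were in Cadm1, an adhesion molecule that epithelium also makes, with -3.22, and Rab7b, a late endosomal GTPase of myeloid cells, with -2.35 (limma adjusted p = 0.000379 and 0.000552).

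The cDC2 list held 5 higher, 5 lower and 4 not called among 14 genes tested, with a median of -0.12; without WT replicate 3 the lower genes numbered 3. Cd209a, the C-type lectin that marks tissue cDC2, was at 53.2, 59.6, 73.3 and 124.5 in WT and at 170.1, 257.2, 179.5 and 266.8 in KO, without overlap (log2 fold change 1.53, limma adjusted p = 0.00373). Mgl2 (CD301b, a lectin of dermal-type cDC2 and of some macrophages) rose by 1.82 and Cd209d by 2.45, and Klf4, a factor of one cDC2 subset that adipocytes and endothelium also express, rose by 0.92 (limma adjusted p = 0.00207, 0.00136 and 0.00182). The other higher gene of this list was Esam, at 1304.4 to 2461.9 in WT and 2941.3 to 3179.5 in KO (log2 fold change 0.71, limma adjusted p = 0.0201). Sirpa, the inhibitory receptor that cDC2 share with macrophages, fell by 2.33 on the log2 scale, from 13464.3 to 20776.4 in WT to 2661.4 to 4278.7 in KO (limma adjusted p = 0.000239). The other lower genes of this list were Tnip3 (-2.76), Rbpj (-0.50), Notch2 (-0.40) and the lectin gene Clec10a (-0.35). Their limma adjusted p were 0.00384, 0.0222, 0.0342 and 0.0193. The list thus had no common direction. The per-kilobase level of Cd209a was 0.868 to 1.7 times that of Clec9a in WT and 2.61 to 4.44 times in KO.

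Among 16 genes of mature, migrating dendritic cells, 2 were higher, 6 lower and 8 not called (median -0.45); the 6 shrank to 2 without WT replicate 1 or 4 and to 3 without WT replicate 3. Cd83 fell from 1403.6 to 1503.5 in WT to 367.7 to 477.7 in KO (log2 fold change -1.85, limma adjusted p = 7.81e-05), and Cd40, the receptor through which T cells license dendritic cells, had -1.15 (adjusted p = 0.00334). Ptprc, carried by all leukocytes, also had -1.85, and the cells that the Cd83 transcripts came from were not tested. Tbc1d4, better known in insulin-driven glucose uptake, had 0.78 and Il15ra, which presents interleukin 15, had 0.73 (limma adjusted p = 0.00332 and 0.00396). Ccr7, the receptor that guides dendritic cells to lymph nodes, was at 87.5 to 226.6 in WT and 47.3 to 105.3 in KO and did not pass (log2 fold change -1.01, limma adjusted p = 0.0569); it passed without WT replicate 2 (-1.23, adjusted p = 0.0312), without KO replicate 3 (-1.21, adjusted p = 0.0432) and in DESeq2 (-1.06, adjusted p = 0.0188).

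Plasmacytoid genes gave 1 higher, 4 lower and 6 not called of 11 (median -1.31). Siglech, their most specific surface lectin, stood at 44.0, 14.4, 21.4 and 29.0 in WT and at 41.4, 29.9, 57.0 and 143.1 in KO. KO replicate 4 was high and the groups overlapped (log2 fold change 1.14, limma adjusted p = 0.107). It passed in DESeq2 (1.32, adjusted p = 0.0463) and with library weights (0.99, adjusted p = 0.0433). The 4 lower genes were Cox6a2, a cytochrome oxidase subunit (-3.25), Blnk, a B cell and myeloid adaptor (-2.48), Runx2, a factor better known from bone (-1.43), and Pacsin1, an endocytic adaptor (-1.31), with limma adjusted p of 0.00688, 0.000251, 0.000737 and 0.0265. Tcf4, which defines the lineage and is expressed in many tissues, had a log2 fold change of 0.25 (limma adjusted p = 0.0226). Tcf4 lost its call without WT replicate 3, WT replicate 4 or KO replicate 1 (limma adjusted p up to 0.0749). It was also lost with a replicate block (0.0775), and without WT replicate 4 and KO replicate 3 together (0.0834). Pacsin1 lost it without WT replicate 1, 2 or 4 or KO replicate 2 (up to 0.0651), without that pair (0.0782) and with library weights (-0.70, adjusted p = 0.105).

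Growth factors and fate genes were lower in 9 of 16 cases and higher in 2, Zbtb46 and Cebpa, the latter also an adipocyte factor (log2 fold change 1.16, limma adjusted p = 0.00107). Spi1, which encodes the myeloid factor PU.1, had -2.23, Csf2ra, the GM-CSF receptor chain, -1.68, Ikzf1, a lymphoid and myeloid factor, -1.28, and Csf1r, the macrophage growth factor receptor, -1.18 (limma adjusted p = 0.0006, 0.00148, 0.00035 and 0.00172). Cross-presentation genes were lower in 3 of 14 cases (5 without KO replicate 3) and higher in 1. Beside Wdfy4 the lower genes included Cybb, the membrane subunit of the oxidase with which phagocytes make superoxide, with -2.15 (limma adjusted p = 0.00085). The higher gene was Lnpep, an endosomal peptide-trimming enzyme also known from insulin-responsive vesicles of fat cells, with 0.47 (adjusted p = 0.00186), and the peptide transporter gene Tap2 had 0.24 (adjusted p = 0.0671) and passed without WT replicate 4 (0.30, adjusted p = 0.0397) or KO replicate 2 (0.29, adjusted p = 0.0487), in DESeq2 (0.25, adjusted p = 0.0398) and with library weights (0.21, adjusted p = 0.0317).

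**Figure D4:**
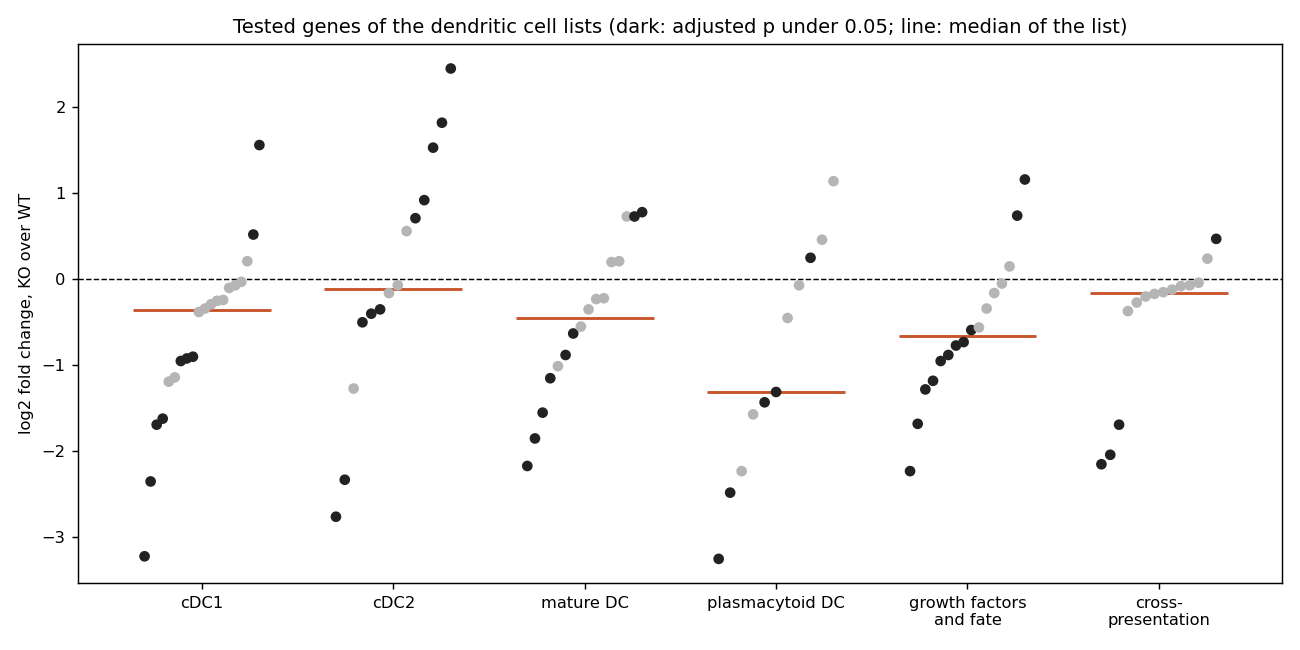
Log2 fold change, KO over WT, of every tested gene of 6 dendritic cell lists (1 point a gene, sorted within its list), dark where limma's adjusted p was under 0.05 and grey otherwise, with a line at the list's median. Every list holds called genes on both sides of 0, and the medians run from -1.31 for plasmacytoid genes to -0.12 for cDC2 genes.

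For 4 of the genes the most similar profiles over the 8 libraries were looked up, by the root mean square difference of log2 values centred on each gene's mean, among about 14304 tested genes with a mean of at least 50. Nearest to Irf8 were Mcm2 (0.0925), Osbpl3 (0.0925) and Ly86 (0.105), where the median gene was at 0.883 and Wdfy4 was at 0.114, Ptprc at 0.283 and Adgre1 at 0.491. Flt3 was nearest to 4933404O12Rik (0.129), Pld4 (0.129) and Tbc1d30 (0.137), with a median of 0.475. Zbtb46 had Rccd1 (0.06), Papss2 (0.0839) and Maip1 (0.0848), with a median of 0.474. Xcr1 had no profile as near, with Zfand4 at 0.219, Rps2-ps5 at 0.234 and Eps8l1 at 0.258 and a median of 0.538. All of these compare the same 8 libraries, so genes that share a group difference come out near each other.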

How the data were processed

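The submitters deposited a table of normalized counts (a signal per gene and library). Per the submitters' processing notes the tools were STAR 2.7.7 and DESeq2 and the genome was GRCm38.p6, with no role stated. How reads were counted, on which strand, with which annotation and with what filter is not given in the sources used here. All 8 columns carried the name of 1 sample, and the labels give no batch. Of the deposited values, 100.0% were whole multiples of 1 step per library (tolerance 0.01 of a read), which gave whole reads, 23681088 to 33817478 per library. Identifiers matched GENCODE M21 for 24802 of 24821 genes, and exon lengths and coordinates come from it.

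The main fit was limma 3.58.1 (R 4.3.3) on log2(normalized count + 1), group alone, with a variance trend and robust moderation, over the genes at 10 or more in at least 4 of the 8 libraries. edgeR 4.0.16 and DESeq2 1.42.0 on the recovered reads served as alternatives, beside other pseudocounts (0.5 and 4), no filter, each library left out, WT replicate 4 and KO replicate 3 left out together, quantile normalization, TMM factors, library weights and a replicate block. The same limma fit was run on log2 values minus those of Ptprc or Adgre1; there the prior degrees of freedom had a median of 30.4 for Ptprc and were infinite for 91.8% of genes for Adgre1, against 2.6 in the main fit. The code was tested on simulated data.

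The 10 genes, the 17 other gene lists (180 of 181 symbols in the table) and the rule for named genes were chosen with earlier results of these data known. The rule took the 10 genes, up to 5 genes per list with the smallest limma p, 9 defining markers, and the 3 nearest profiles of 4 genes. Haspin and Lrrc18 were named for their position. Clec10a, Notch2, Rbpj and Tnip3 were named to complete the lower genes of the cDC2 list, and Esam to complete its higher genes. The ratios between genes and the library-by-library differences from Ptprc and Adgre1 were added after the values were seen. A gene of the cross-presentation list is counted there and not reported by name.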

Additional observations from a re-analysis of the deposited data

Results flagged for a closer look

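Cd24a in WT replicate 4 stood at 1437.3 normalized counts, far above the 512.8 to 612.7 of the other WT libraries: its gap to the nearest was 0.892 of the group's range, over Dixon's 95% critical value for 4 values. This was the only such gap among the 20 groups tested (10 genes in 2 genotypes), and chance flags about 1 in 20. The same library had more globin reads (1.75%) than the other WT libraries (0.233% to 0.258%); the part of red cell RNA in this value was not tested.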

How the results depend on the processing

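Over the 18 alternatives for KO against WT, 3 of the 10 genes stayed higher, and 2 were lower except without WT replicate 2 and in DESeq2, where Flt3 made it 3. Irf8, Wdfy4, Itgae, Zbtb46 and Naaa passed in all 18, with log2 fold changes of -1.73 to -1.48, -1.81 to -1.56, 1.28 to 1.79, 0.65 to 0.84 and 0.47 to 0.61. Cd24a, never called, changed sign: leaving out 1 library each gave -0.53 to 0.44, quantile normalization 0.04, library weights 0.28, edgeR 0.24 and DESeq2 0.22. Clec9a, also never called, ran from -0.13 to 0.04 with 1 library left out, and gave 0.12 without WT replicate 4 and KO replicate 3 together, 0.17 with quantile normalization and 0.07 with library weights. Xcr1 was 0.07 with quantile normalization, and Flt3l ran from -0.08 to 0.24 with 1 library left out; the cause of these changes was not tested. Quantile normalization turned the split over all genes from 3592 higher and 3831 lower to 4593 and 3257 and moved the median log2 fold change from -0.007 to 0.098. edgeR called 3747 higher and 3712 lower, and DESeq2 4080 and 4256. Same-numbered libraries deviated together with correlations of -0.143, 0.051, -0.041 and 0.172, and differently numbered ones with -0.237 to 0.178. No pairing by number was thus visible, but values this weak cannot exclude one. With the replicate block 2989 genes were higher and 3277 lower. Relative to Adgre1 with that block, 10 of the 10 genes were higher (Irf8 0.81, limma adjusted p = 0.0241), beside 16257 of the 17797 genes tested. That count is near the share of all genes and says nothing particular about the 10. Relative to Ptprc, Cd24a was not called without WT replicate 2 (1.90, adjusted p = 0.0752). The read depth limits Xcr1, Itgae and Flt3 most, whose lowest libraries held 19, 41 and 61 reads.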
